A study of Caenorhabditis elegans with 40 samples.

Results

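The deposited gene tables list 41560 genes, among them 156 numbered *col-* genes, of which 7 are described here: *col-8*, *col-19*, *col-20*, *col-98*, *col-143*, *col-176* and *col-179*. They were chosen by name from a list of adult-type collagens, drawn up from earlier results of these data as *col-* genes whose RNA is kept when animals grow at 25°C. Temperature contrasts were therefore used in the choice and are given below as descriptions without a test. The RNA came from whole *C. elegans* animals in 8 groups of 5 libraries (40 in all), all fed *E. coli* OP50 and kept for generations at the temperature of their group. At 25°C and at 20°C, *npr-8(ok1439)* animals, a deletion mutant of a neuropeptide receptor of amphid sensory neurons, and wild-type N2 animals were collected as old adults (9-day-old) and as young adults. The young animals are 0-day-old in the sample labels and a day older in the study's own account, and the old animals had been washed and filtered through a strainer every day. Nothing in these sources says whether the 5 libraries of a group came from separate cultures, so the p-values measure only the spread between these libraries. The design addresses how temperature, age and NPR-8 relate at the level of RNA.

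Cuticle collagens are short secreted proteins built of Gly-X-Y repeats. The epidermis makes them, enzymes hydroxylate, process and cross-link them, and a new cuticle is assembled at every molt, including the molt to the adult. Different sets of *col-* genes are used at successive stages, and *col-19* is a well-known example of a gene switched on in the epidermis at the transition to the adult, downstream of the heterochronic zinc finger factor LIN-29. In whole animals a smaller share of epidermal RNA and less collagen RNA per epidermal cell cannot be told apart.

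In the ce10 coordinates of the deposited tables, *col-19* lies at 421724 to 422647, *col-176* at 10077567 to 10078511 and *col-179* at 11201473 to 11202377, all on chromosome X. *col-20* lies on chromosome II (4869771 to 4870766) and *col-143* on chromosome V (6835636 to 6836646). The intervals listed for *col-8* (chromosome III, 6968121 to 7030621) and *col-98* (chromosome III, 12784715 to 13607695) are far longer than a collagen gene and take in other genes, so that these locations are those of a cluster of overlapping annotations and not of the gene alone.

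Libraries held 18690583 to 36883662 fragments on genes, with a median of 26451591. Levels are given as CPM, fragments per 1000000 fragments on genes after TMM scaling over all libraries, and compare libraries for one gene rather than one gene with another. A gene is called where edgeR's quasi-likelihood test gave an adjusted p under 0.05 and at least a 2-fold change, and fold changes are on the log2 scale. Overlap between libraries is given for the 7 genes and not over all genes, so it describes the 7 and is not set against the rest. A pair of young libraries stood apart. Wild-type young library 2 at 20°C was the lowest of its group in 6 of the 7 genes, with 1 fragment of *col-143* against 73 to 234 in the other 4. In *npr-8(ok1439)* young library 1 at 25°C the TMM factor was 1.31, against 0.821 to 1.14 in the other 39 libraries, and 18.5% of the 8086 genes with at least 10 CPM in that group were more than 2-fold below the mean of the other 4 libraries. No call of the 7 genes changed when either was left out. Fragments on *npr-8* itself numbered 53 to 93 per library in 3 *npr-8(ok1439)* groups and 33 to 76 in the wild-type groups, so the RNA of the targeted gene did not separate the genotypes and does not check the labels. Marker genes of all 6 tissues and stages examined (epidermis, body wall muscle, intestine, oocyte and embryo, sperm, molting larva) had RNA in every group.

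**Figure D1:**
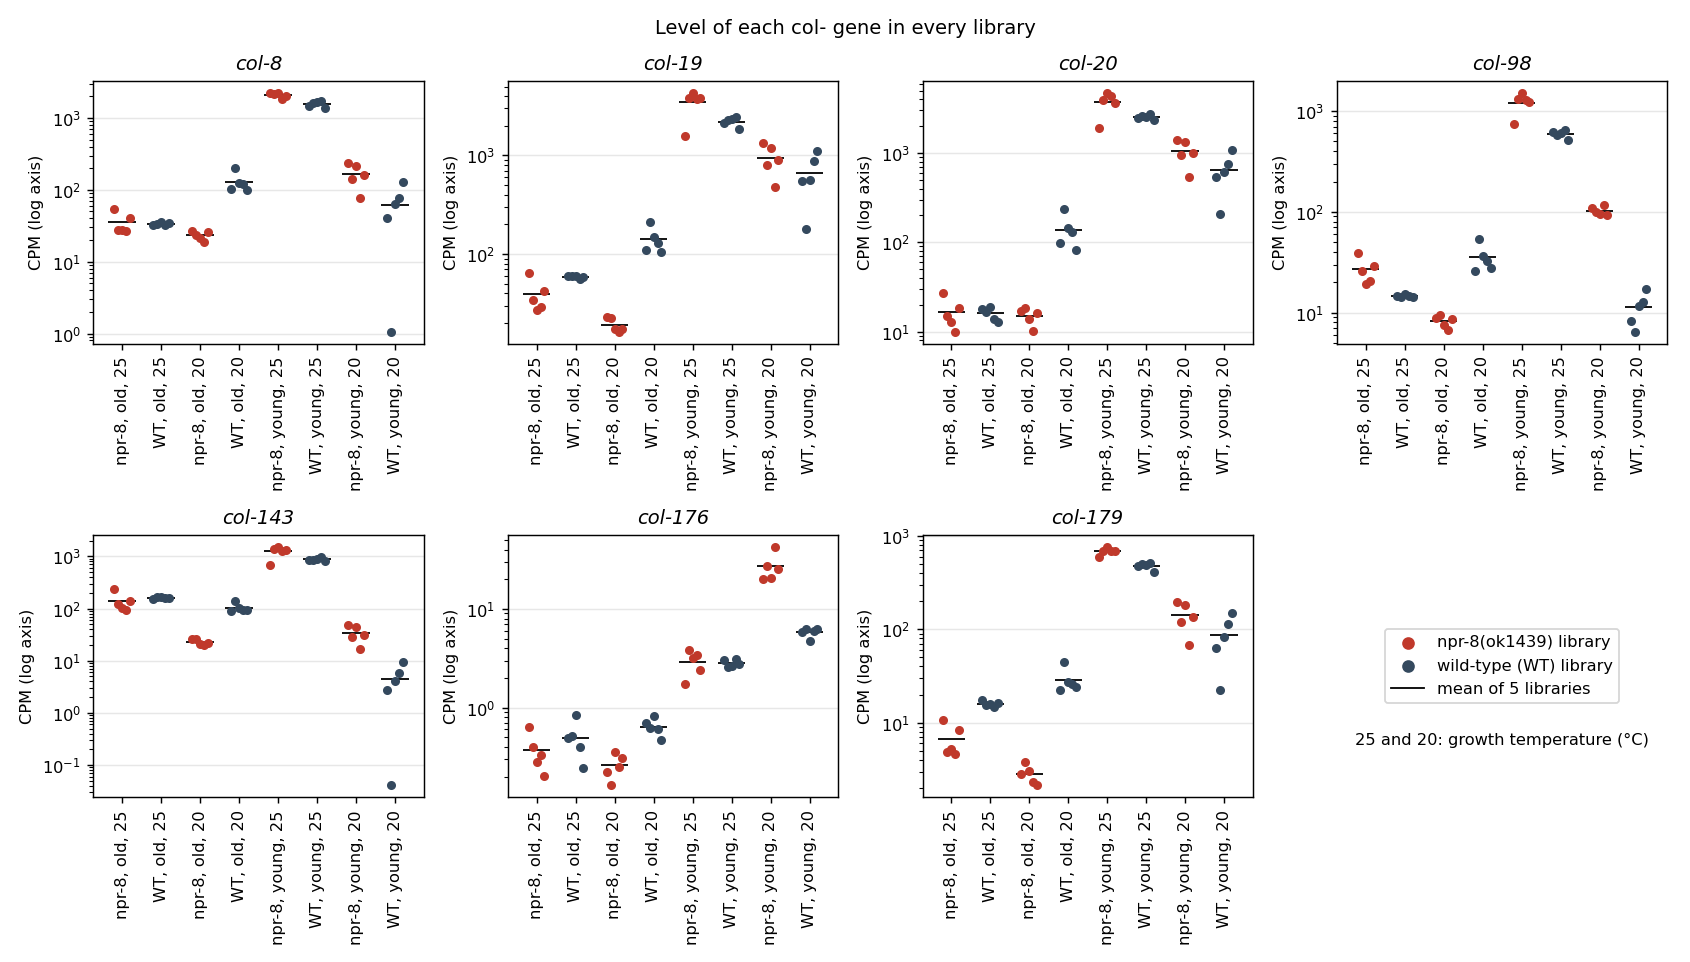
Level of each of the 7 genes in every library (CPM, log axis), with *npr-8(ok1439)* libraries in red, wild-type (WT) libraries in blue and the mean of 5 libraries as a black line. For 6 genes the young libraries at 25°C lie above all others, whereas *col-176* is highest in young *npr-8(ok1439)* libraries at 20°C (19.9 to 42.8 CPM).

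In 6 of the 7 genes the young wild-type libraries at 25°C all lay above those at 20°C, and in *col-176* they all lay below. So in young wild-type animals the description as collagens kept at 25°C understates the level of 6 genes and goes against that of *col-176*. In old wild-type animals, given below, 5 genes were lower at 25°C, and the 7 are called here by their names. *col-143* was at 859, 868, 908, 956 and 801 CPM in young wild-type animals at 25°C, against 2.79, 0.0406, 4.01, 5.93 and 9.39 CPM at 20°C. *col-98* was at 623, 585, 603, 654 and 514 CPM at 25°C, against 8.34, 6.46, 11.8, 12.7 and 17.1 CPM at 20°C. These were the largest differences of the 7, with log2 fold changes of 7.63 for *col-143* and 5.73 for *col-98*. *col-8* was at 1484, 1596, 1660, 1701 and 1382 CPM at 25°C, against 39.9, 1.06, 63.5, 75.9 and 128 CPM at 20°C (log2 fold change 4.67). For *col-19*, the adult-stage collagen, the 25°C libraries held 2121, 2293, 2328, 2443 and 1859 CPM and the 20°C libraries 546, 178, 561, 879.7 and 1120 CPM (log2 fold change 1.75). This gene, *col-20* and *col-179* had the smallest differences of the 6 (1.99 for *col-20*, with 2327 to 2706 CPM at 25°C against 207 to 1088 CPM at 20°C, and 2.47 for *col-179*, with 411 to 509 CPM against 22.3 to 149 CPM). *col-176* was at 3.07, 2.58, 2.63, 3.08 and 2.77 CPM at 25°C, against 5.78, 6.26, 4.71, 6.04 and 6.30 CPM at 20°C (log2 fold change −1.02). Without wild-type library 2 at 20°C the 7 values ran from −1.01 for *col-176* to 7.33 for *col-143*.

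The other *col-* genes mostly went the opposite way. Of 114 that could be fitted, 91 were at least 2-fold lower and 16 at least 2-fold higher at 25°C (median −6.72 on the log2 scale), while over all 14915 genes 21.4% were at least 2-fold higher and 34.9% at least 2-fold lower. As the 7 were picked from this contrast, nothing is read from the difference. The *col-* genes outside the list whose values were at or above that of *col-176* numbered 23: *col-135*, *col-95*, *col-101*, *col-116*, *col-158*, *col-103*, *col-119*, *col-80*, *col-178*, *col-142*, *col-140*, *col-43*, *col-124*, *col-106*, *col-181*, *col-122*, *col-93*, *col-160*, *col-96*, *col-132*, *col-53*, *col-83* and *col-153*. Together the 7 genes held 24.7% to 25.7% of all *col-* CPM in young wild-type libraries at 25°C, against 0.617% to 4.05% at 20°C. The *col-* total itself was lower at 25°C, with a mean of 32671 CPM against 59328 CPM at 20°C. CPM are not scaled for gene length, so the share is one of fragments and a description only.

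**Figure D2:**
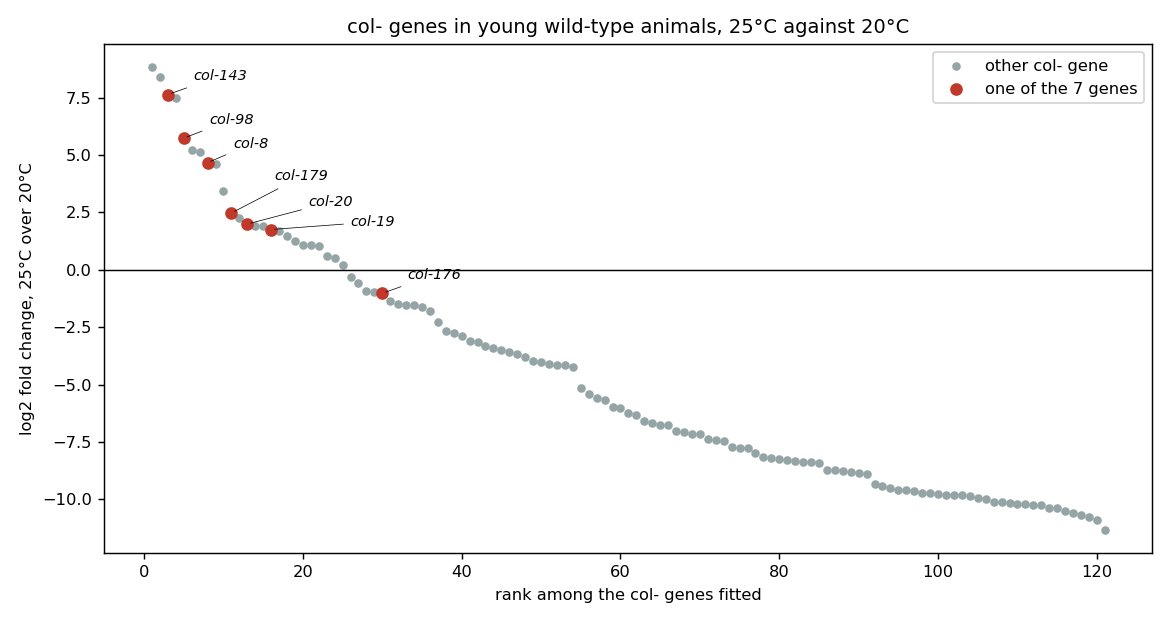
Log2 fold change of 121 *col-* genes in young wild-type animals, 25°C over 20°C, ranked from the highest to the lowest, with the 7 genes in red. *col-143* ranks 3rd at 7.63 and *col-176* ranks 30th at −1.02, and most other *col-* genes lie far below 0.

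In young *npr-8(ok1439)* mutants the same 6 genes were above their 20°C range in every 25°C library and *col-176* below it. The log2 fold changes were 5.22 for *col-143*, 3.68 for *col-8*, 3.57 for *col-98*, 2.301 for *col-179*, 1.88 for *col-19*, 1.83 for *col-20* and −3.21 for *col-176*, and over all 14876 genes 12.8% were at least 2-fold higher and 26.2% at least 2-fold lower. Leaving out library 1 at 25°C moved these to between −3.07 and 5.35. Stage markers moved along with temperature. The summed level of 8 molting genes was 111 to 125 CPM in young wild-type libraries at 25°C against 1146 to 1798 CPM at 20°C, and that of 10 oocyte and embryo genes was 8597 to 9295 CPM against 450.2 to 559 CPM. In young *npr-8(ok1439)* libraries the molting genes summed to 94.8 to 191 CPM at 25°C against 1304 to 2506 CPM at 20°C, and the oocyte and embryo genes to 2031 to 5830 CPM against 815 to 1370 CPM. The part of developmental stage in the levels of the 7 genes was not tested.

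In old wild-type animals the picture by temperature was different: only *col-143* was above its 20°C range at 25°C, 5 genes were below it and *col-176* overlapped. *col-20* differed most, at 17.8, 16.8, 18.7, 13.8 and 12.9 CPM at 25°C against 99.5, 237, 144, 131 and 81.9 CPM at 20°C (log2 fold change −3.13). *col-143* was at 150.0, 164, 164, 156 and 159.5 CPM at 25°C against 90.3, 140.1, 102, 93.5 and 92.7 CPM at 20°C (0.60). The remaining log2 fold changes were −1.96 for *col-8*, −1.28 for *col-19*, −1.28 for *col-98*, −0.87 for *col-179* and −0.42 for *col-176*, where 1.99% of 13689 genes were at least 2-fold higher and 4.28% at least 2-fold lower. In old *npr-8(ok1439)* animals all 6 genes that could be fitted had values above 0: 2.59 for *col-143*, 1.65 for *col-98*, 1.19 for *col-179*, 0.98 for *col-19*, 0.56 for *col-8* and 0.07 for *col-20*, with 3.82% of 12737 genes at least 2-fold higher and 6.30% at least 2-fold lower. *col-176* had too few fragments there to be fitted (6 to 13 per library at 25°C and 5 to 10 at 20°C). The ranges of *col-8* and *col-20* overlapped between the temperatures, and those of the other 4 did not.

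Between genotypes, at 20°C, all 7 genes fell in old *npr-8(ok1439)* animals, with no overlap between the genotypes in any of them. Small p-values were common in this contrast, as 9458 of the 12706 genes tested had an unadjusted p under 0.05 in the edgeR test. The median log2 fold change of the 7 was −2.37, against −0.03 over all 12706 genes tested, of which 9.57% were called lower and 10.9% higher. Temperature contrasts of old animals are treated here as used in the choice, and these libraries enter them. The calls are therefore a description, and nothing is read from the 7 as a set. *col-179* had 2.82, 3.77, 3.04, 2.31 and 2.13 CPM in old *npr-8(ok1439)* libraries, against 22.6, 44.5, 27.5, 25.7 and 23.9 CPM in old wild-type libraries. It differed most, with a log2 fold change of −3.23 (SE 0.25, adjusted p = 1.66e-06). *col-20* had 17.2, 18.5, 13.9, 10.04 and 16.02 CPM in *npr-8(ok1439)* animals, against the wild-type values given above, and fell by 3.08 (SE 0.33, adjusted p = 2.93e-05). For *col-19* the values were 22.9, 22.4, 17.3, 16.3 and 17.3 CPM in *npr-8(ok1439)* animals, against 110.1, 212, 150.1, 129.9 and 106 CPM in wild type, so that its RNA fell by 2.76 (SE 0.23, adjusted p = 4.21e-06). In all 3 genes the highest mutant library was far below the lowest wild-type library. Wild-type library 2 was the highest of its group in all 3. Leaving out each library in turn gave −3.36 to −3.03 for *col-179*, −3.22 to −2.80 for *col-20* and −2.84 to −2.57 for *col-19*.

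*col-8* stood at 27.04, 23.6, 21.2, 18.5 and 25.5 CPM in old *npr-8(ok1439)* mutants at 20°C, against 103, 203, 125, 119 and 99.5 CPM in wild type, and fell by 2.37 (SE 0.23, adjusted p = 1.25e-05). *col-143* fell by 2.08 (SE 0.14, adjusted p = 7.93e-07), with 19.6 to 25.7 CPM in *npr-8(ok1439)* libraries. *col-98* fell by 1.98 (SE 0.22, adjusted p = 3.29e-05), with 6.79 to 9.49 CPM in *npr-8(ok1439)* libraries against 26.0 to 53.96 CPM in wild type. The smallest decrease was that of *col-176*, by 1.19 (SE 0.26, adjusted p = 0.000398), at 5 to 10 fragments per *npr-8(ok1439)* library against 12 to 21 per wild-type library. The rest of the collagen family fell as well: of 86 other *col-* genes tested, 61 were called lower and 2 higher (median log2 fold change −1.74), and of 20 named cuticle collagens of the *dpy*, *rol*, *sqt*, *bli*, *lon* and *ram* classes 18 were called lower, led by *rol-1* (−4.01, SE 0.30, adjusted p = 4.02e-10) and *dpy-13* (−3.16, SE 0.40, adjusted p = 6.99e-05). None of the 10 collagen-processing genes tested (prolyl hydroxylases, processing proteases and cross-linking enzymes) was called. Markers of tissues differed too. Body wall muscle genes summed to 165 to 193 CPM in old *npr-8(ok1439)* libraries against 270.4 to 494 CPM in wild type (4 of 8 genes had values). Intestinal genes summed to 990.5 to 1104 CPM against 2077 to 2469 CPM. Epidermal genes summed to 273 to 283 CPM against 387 to 410.4 CPM (6 of 10 had values). Of these 6, *noah-1* (−1.43) and *noah-2* (−1.27) were called lower, and the median log2 fold change was −0.20. Median levels were 130 against 151 CPM for *lin-26*, 64.0 against 86.0 CPM for *lrp-1* and 40.2 against 45.4 CPM for *mup-4*. *che-14* lay higher, at 3.98 against 3.01 CPM. Sperm genes were higher, at 80.7 to 86.5 CPM against 8.002 to 15.4 CPM, with all 7 tested called higher. Their part in the result was not tested.

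At 25°C the genotypes were closer in old animals, and only *col-179* was called. The median of the 7 was −0.12, against −0.01 over all genes. These libraries too enter temperature contrasts treated as used in the choice, so nothing is read from the 7 as a set. *col-179* had 10.8, 4.92, 5.19, 4.59 and 8.34 CPM in old *npr-8(ok1439)* libraries against 17.5, 15.4, 15.98, 14.7 and 16.1 CPM in wild type. It fell by 1.20 (SE 0.20, adjusted p = 0.000218). Among 14413 genes 3.49% were called lower and 10.2% higher. *col-98* did not overlap either and lay in the other direction, at 39.5, 26.0, 19.2, 20.4 and 29.0 CPM in *npr-8(ok1439)* animals against 14.8, 14.5, 15.4, 14.7 and 14.2 CPM in wild type. Its log2 fold change of 0.92 (SE 0.16, adjusted p = 0.000325) missed the 2-fold threshold and passed it with library sizes alone (1.004), with limma on FPKM (1.03) or without *npr-8(ok1439)* library 3 (1.02) or 4 (1.01). The other 5 genes overlapped between the genotypes: *col-19* had a log2 fold change of −0.53 (adjusted p = 0.0352), and *col-8* (0.12), *col-20* (0.09), *col-143* (−0.12) and *col-176* (−0.37) had adjusted p of 0.362 to 0.752. In all 7 genes *npr-8(ok1439)* library 1 was the highest of its group. It also had the fewest fragments of the 40 libraries (18690583). The 7 summed to 436 CPM there, against 187 to 279 CPM in the other libraries of the group. Leaving out each library in turn gave log2 fold changes of −0.76 to −0.42 for *col-19* and −0.39 to −0.007 for *col-143*. For *col-176* they were −0.59 to −0.12 and for *col-179* −1.40 to −1.09. For *col-8*, *col-20* and *col-98* they were −0.06 to 0.21, −0.125 to 0.235 and 0.76 to 1.02. In that contrast 4 of 90 other *col-* genes were called lower and 2 higher, 1 of 21 named cuticle collagens was lower (*dpy-4*, −1.02, SE 0.36, adjusted p = 0.0326), and no processing gene was called. Sperm genes were again called higher (6 of 6 tested), at 36.1 to 42.8 CPM in *npr-8(ok1439)* against 5.51 to 6.71 CPM in wild-type libraries. Intestinal genes summed to 490.5 to 864 CPM in *npr-8(ok1439)* against 1056 to 1137 CPM in wild type (1 of 8 called lower), and oocyte and embryo genes to 5713 to 6544 CPM against 8320 to 8760 CPM (0 of 10 called). The part of these tissues in the differences was not tested.

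At 20°C *col-98*, *col-143* and *col-176* rose in young *npr-8(ok1439)* animals, and the libraries of the genotypes did not overlap in these 3 genes, while they overlapped in the other 4. Over all 14813 genes 4.42% were called higher and 1.48% lower. The young wild-type libraries at 20°C were used in the choice, which favours a low level there and so a rise in the mutants. The calls are therefore a description, and nothing is read from their number. *col-98* had 109.5, 99.3, 96.2, 116 and 94.1 CPM in *npr-8(ok1439)* libraries, against 8.34 to 17.1 CPM in 4 wild-type libraries and 6.46 CPM in library 2. It rose by 3.19 (SE 0.24, adjusted p = 1.35e-05) and was the steadiest of the 7 among these *npr-8(ok1439)* libraries (103 ± 9.37 CPM, SD, n = 5). *col-176* had 19.9, 27.1, 20.4, 42.8 and 25.3 CPM, against 4.71 to 6.30 CPM in wild type, and rose by 2.23 (SE 0.21, adjusted p = 2.72e-05). *col-143* had 47.9, 28.1, 43.5, 16.9 and 31.6 CPM, against 0.0406 to 9.39 CPM in wild type, and rose by 2.92 (SE 0.64, adjusted p = 0.00688). Without wild-type library 2 the values were 2.60 for *col-143* (adjusted p = 0.00134), 3.04 for *col-98* and 2.24 for *col-176*.

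The other 4 genes overlapped between genotypes and were not called. The median of the 7 was 1.42, against −0.003 over all genes, and nothing is read from it for the same reason. *col-8* had 234, 142, 212, 76.7 and 162 CPM in young *npr-8(ok1439)* mutants at 20°C, against 39.9, 1.06, 63.5, 75.9 and 128 CPM in wild type (log2 fold change 1.42, SE 0.77, adjusted p = 0.194). Fitted over all groups together, with a shared estimate of the spread, this difference passed the test (1.45, adjusted p = 0.00966). *col-19* had 1329, 802, 1202, 477 and 893 CPM in *npr-8(ok1439)* animals, spanning most of the wild-type range (0.51, SE 0.46, adjusted p = 0.426). *col-20* (0.70, SE 0.41) and *col-179* (0.71, SE 0.47) gave adjusted p of 0.225 and 0.283. Without wild-type library 2 the values were 1.10 for *col-8* (adjusted p = 0.0606), 0.27 for *col-19*, 0.47 for *col-20* and 0.46 for *col-179*. Outside the 7, 10 of 116 *col-* genes were called higher and 2 lower (median −0.14), and 7 of 21 named cuticle collagens were higher, led by *dpy-3* (2.92, SE 0.32, adjusted p = 9.81e-05) and *dpy-10* (2.84, SE 0.28, adjusted p = 5.88e-05), both collagens of the annular furrows. No processing gene was called. The oocyte and embryo genes summed to 815 to 1370 CPM in the *npr-8(ok1439)* libraries against 450.2 to 559 CPM in wild type, with 7 of 10 called higher, and the molting genes to 1304 to 2506 CPM against 1146 to 1798 CPM. Their part in the differences was not tested.

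At 25°C all 7 log2 fold changes of young *npr-8(ok1439)* against wild-type animals were above 0, with a median of 0.55 against 0.06 over all 13954 genes, and 6 had an adjusted p under 0.05. A small p was common here, as 9055 of the 13954 genes had an unadjusted p under 0.05 in the edgeR test. The young wild-type libraries at 25°C also entered the choice, so nothing is read from the 7 as a set. Only *col-98* also reached 2-fold, where 14.4% of all genes were called higher and 2.84% lower. *col-98* had 744, 1305, 1511, 1281 and 1234 CPM in *npr-8(ok1439)* libraries, against 514 to 654 CPM in wild type, and rose by 1.05 (SE 0.17, adjusted p = 0.000262). The value is close to the threshold, was below it with RLE size factors (0.99), with limma on log2(FPKM + 1) (0.78, adjusted p = 0.862) and without *npr-8(ok1439)* library 2 (0.998) or 3 (0.95) or wild-type library 5 (0.97), and was 1.16 without *npr-8(ok1439)* library 1. *col-179* (0.55, SE 0.10, adjusted p = 0.000926) and *col-8* (0.44, SE 0.12, adjusted p = 0.00929) did not overlap between genotypes, with 592 to 767 against 411 to 509 CPM and 1838 to 2225 against 1382 to 1701 CPM. *col-19*, *col-20* and *col-143* overlapped through *npr-8(ok1439)* library 1 alone, and without it their log2 fold changes were 0.82, 0.71 and 0.65, all still under 2-fold. For *col-176* the value was 0.06 (SE 0.19, adjusted p = 0.798). The other *col-* genes moved further in the same contrast: 76 of 102 were called higher and 1 lower, with a median of 2.70. Of 21 named cuticle collagens 15 were higher, led by *rol-1* (4.70, SE 0.40, adjusted p = 4.36e-06) and *dpy-5* (4.22, SE 0.41, adjusted p = 9.82e-06), and 2 were lower, *dpy-14* (−3.96, SE 0.22, adjusted p = 3.02e-07) and *dpy-17* (−2.69, SE 0.18, adjusted p = 9.80e-07). Of 14 processing genes *phy-3*, a prolyl 4-hydroxylase subunit, was called higher (1.07, SE 0.15, adjusted p = 0.000103). The oocyte and embryo genes were lower in sum in the *npr-8(ok1439)* libraries (2031 to 5830 CPM against 8597 to 9295 CPM in wild type) with none of 10 called, 5 of 6 sperm genes were called higher, and their part in the differences was not tested.

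**Figure D3:**
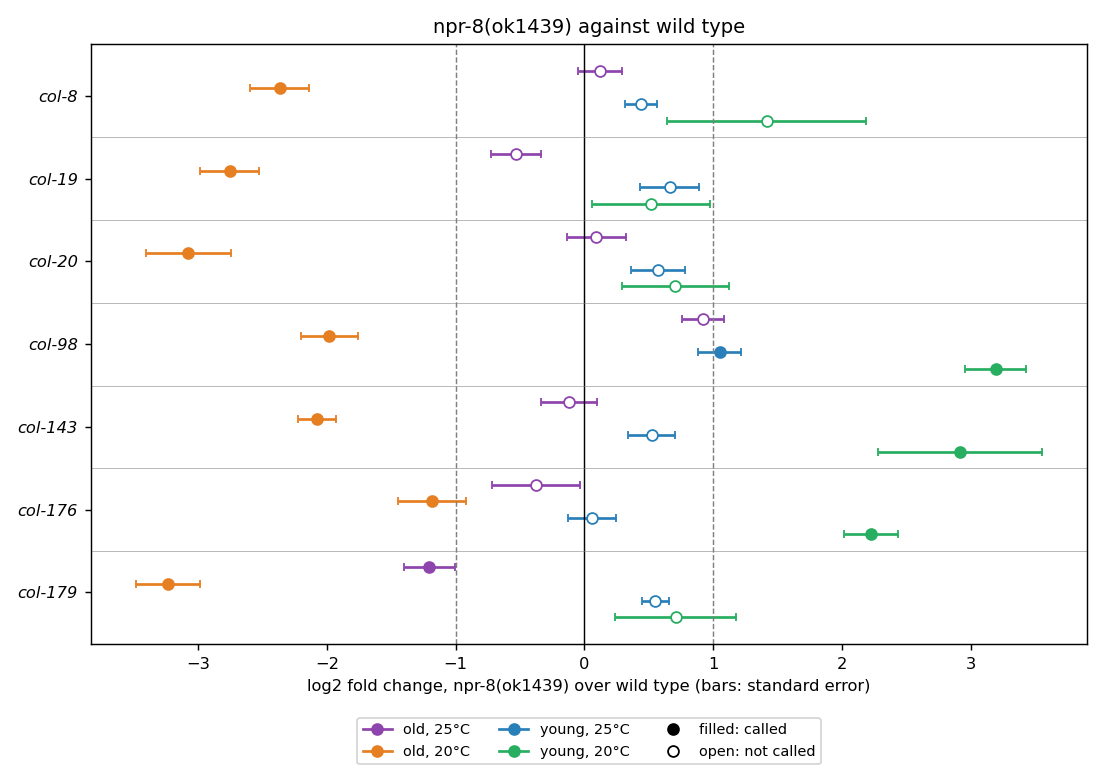
Log2 fold change of *npr-8(ok1439)* over wild type for each gene in 4 settings, with the standard error as bars (5 libraries per group), filled points where the gene was called and dashed lines at 2-fold. All 7 genes are called lower in old animals at 20°C (−1.19 to −3.23), and *col-98*, *col-143* and *col-176* are called higher in young animals at 20°C. The young wild-type libraries were used in the choice of the genes, and the old libraries enter temperature contrasts that are treated as used in it.

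The young libraries entered the choice of the 7 genes, which favours genes with a high level in young animals at 25°C and a low one at 20°C, so nothing is read from the direction of the age differences as a set. At 25°C they are given as a description, without a test: every one of the 7 was lower in old animals of both genotypes, and no old library overlapped a young one. In *npr-8(ok1439)* animals the log2 fold changes ran from −2.999 for *col-176* to −7.79 for *col-20*, where 23.4% of 14733 genes were called lower and 10.4% higher. *col-179* (−6.67, SE 0.26) and *col-19* (−6.44, SE 0.34) came next in that genotype. Without young library 1 the 7 values ran from −3.17 for *col-176* to −7.996 for *col-20*. In wild type the log2 fold changes ran from −2.46 for *col-143* to −7.31 for *col-20*, where 15.4% of 13848 genes were called lower and 9.07% higher. *col-20* went furthest, to 12.9 to 18.7 CPM in old wild-type libraries, against 2327 to 2706 CPM in young ones. *col-8* was at 32.5, 33.0, 35.1, 32.8 and 34.9 CPM in old animals with a log2 fold change of −5.54 (SE 0.07), and *col-98* (−5.34, SE 0.07), *col-19* (−5.23, SE 0.07) and *col-179* (−4.90, SE 0.07) had similar values. Of the other *col-* genes, 89 of 107 were called lower and 8 higher in *npr-8(ok1439)* animals, and 39 of 90 lower and 15 higher in wild type.

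In *npr-8(ok1439)* mutants at 20°C, 6 of the 7 fell with age and none rose, where 39.4% of 13338 genes were called lower and 27.5% higher. The log2 fold changes were −6.57 for *col-176* (SE 0.32), −5.99 for *col-20* (SE 0.34), −5.52 for *col-179* (SE 0.37), −5.49 for *col-19* (SE 0.33), −3.52 for *col-98* (SE 0.09) and −2.72 for *col-8* (SE 0.30), with adjusted p between 1.46e-14 and 1.64e-05. *col-143* was the exception, at 25.5, 25.7, 20.7, 19.6 and 21.6 CPM in old against 47.9, 28.1, 43.5, 16.9 and 31.6 CPM in young libraries (−0.45, SE 0.26, adjusted p = 0.129). The median of the 7 was −5.49, against −0.31 over all genes, and nothing is read from it, as stated above. Of 116 other *col-* genes, 100 were called lower and 7 higher.

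At 20°C the 7 genes divided in wild-type animals, with 4 that fell, 2 that rose and 1 that did not pass the test, where 36.7% of 15323 genes were called lower and 26.7% higher. The young wild-type libraries at 20°C were used in the choice, which favours a low level there and so a rise with age. These calls are therefore a description, and no support is drawn from their p-values. *col-143* rose by 4.58 (SE 0.59, adjusted p = 4.57e-05), with 90.3 to 140.1 CPM in old against 0.0406 to 9.39 CPM in young libraries. *col-98* rose by 1.69 (SE 0.29, adjusted p = 0.000268), with 26.0, 53.96, 36.5, 32.5 and 27.7 CPM in old libraries, all above the young ones. For *col-8* the log2 fold change was 1.10 (SE 0.76, adjusted p = 0.191), and the old libraries (99.5 to 203 CPM) overlapped the young ones through young library 5. *col-176* fell by 3.12 (SE 0.15, adjusted p = 1.08e-10) to 0.468 to 0.814 CPM in old libraries, the only one of the 4 with no overlap. *col-19* fell by 2.18 (SE 0.47, adjusted p = 0.00157), *col-20* fell by 2.17 (SE 0.47, adjusted p = 0.00162) and *col-179* fell by 1.54 (SE 0.47, adjusted p = 0.0114), each overlapping through young library 2 alone. *col-179* was not called with the replicate number as a block (−1.40, adjusted p = 0.0909) or with limma on log2(FPKM + 1) and log2(FPKM + 0.1) (adjusted p = 0.101 and 0.092). Without that library the log2 fold changes were −2.43 for *col-19*, −2.40 for *col-20*, −1.79 for *col-179*, 4.26 for *col-143*, 1.53 for *col-98* and 0.78 for *col-8*. The other *col-* genes were called lower in 99 of 118 cases and higher in 10. The median of the 7 was −1.54, against −0.16 over all genes, and nothing is read from it either.

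The age comparisons share their libraries with the genotype comparisons above, so the sets are not independent of each other. Other tissues changed with age as well. All 8 body wall muscle genes were called lower in both genotypes at 25°C, as were all 4 tested in *npr-8(ok1439)* and 8 in wild-type animals at 20°C. At 20°C all 10 oocyte and embryo genes were called higher in both genotypes, whereas none was called at 25°C. The part of these changes in those of the 7 genes was not tested.

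**Figure D4:**
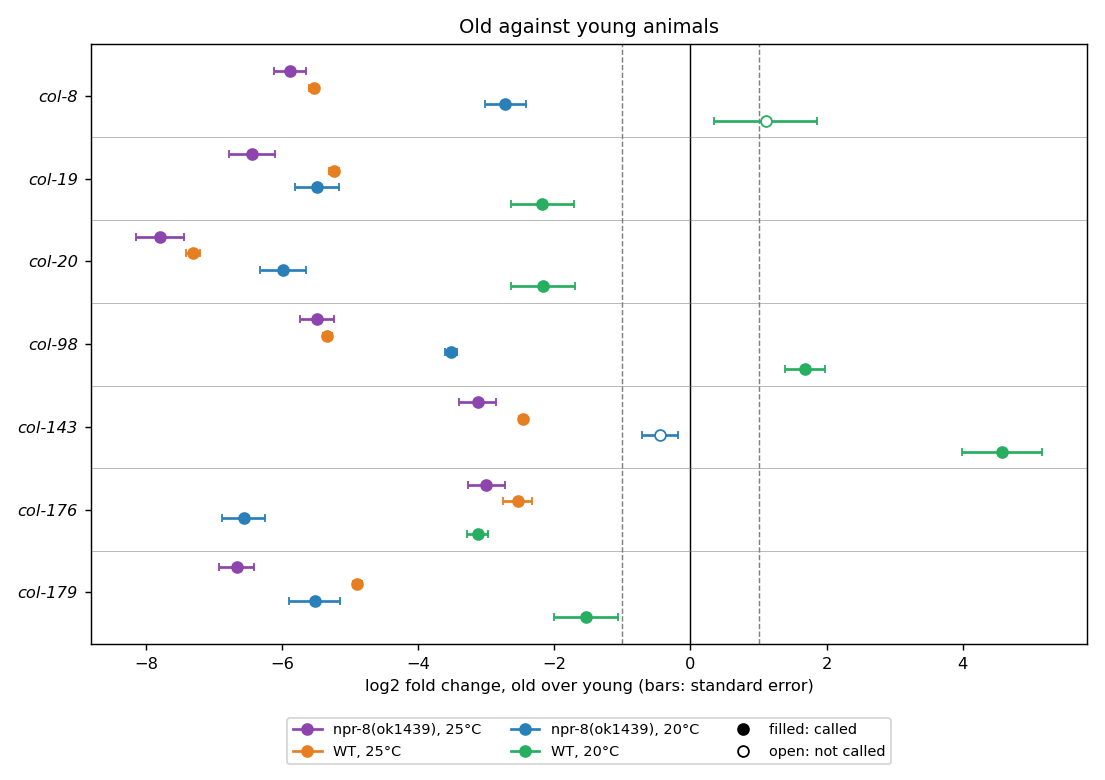
Log2 fold change of old over young animals for each gene in 4 settings, with the standard error as bars (5 libraries per group), filled points where the gene was called and dashed lines at 2-fold. At 25°C every point lies below −2, and in wild type at 20°C *col-143* (4.58) and *col-98* (1.69) lie above 0. Filled points at 25°C mark values that passed the threshold for a call, but these are a description and not read as tests.

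The effect of genotype differed with age at 20°C in all 7 genes, by −3.31 for *col-19* to −5.20 for *col-98* on the log2 scale (SE 0.32 to 0.84, adjusted p between 1.12e-10 and 0.000898). In that interaction 13.2% of 13789 genes were called lower and 11.6% higher. The negative sign means that *npr-8(ok1439)* over wild type was lower in old than in young animals. *col-98* had the largest such difference and *col-143* the next (−5.03, SE 0.61), and both were called higher in young and lower in old mutants. Without young wild-type library 2 the 7 terms ran from −3.07 for *col-19* to −5.06 for *col-98*. The young wild-type libraries in the terms at both temperatures were used in the choice, and a low level at 20°C favours a negative sign there. The terms are therefore a description, and nothing is read from them as a set. At 25°C the same interaction was called for *col-179* (−1.76, SE 0.22, adjusted p = 8.58e-07) and *col-19* (−1.20, SE 0.29, adjusted p = 0.0016), where 11.6% of 15087 genes were called lower and 9.05% higher, and the other 5 lay between −0.65 and −0.14. Without young *npr-8(ok1439)* library 1 the terms were −1.81 for *col-179* and −1.39 for *col-19*.

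In old animals the difference between the genotype effects at 25°C and at 20°C is equally the difference between the temperature effects in the genotypes. For *col-20* it was 3.16, and the temperature effects were 0.07 in *npr-8(ok1439)* and −3.13 in wild-type animals. As temperature was used in the choice of the 7, these terms are a description without a test, and nothing is read from them. They were 2.90 for *col-98* (SE 0.28), 2.48 for *col-8* (SE 0.29), 2.22 for *col-19* (SE 0.31), 2.03 for *col-179* (SE 0.33), 1.96 for *col-143* (SE 0.29) and 0.82 for *col-176* (SE 0.44), which had few fragments in old animals. Of 13115 genes 4.88% were called higher and 2.49% lower, and of 95 other *col-* genes 49 were called higher and none lower.

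Over all 40 libraries *col-19*, *col-20* and *col-179* followed each other closely on the log2(CPM + 1) scale (Pearson r 0.965 to 0.990), and so did *col-8* and *col-98* (0.946). *col-143* was nearer to *col-98* (0.781) and *col-8* (0.764) than to *col-19* (0.401) or *col-20* (0.328). *col-176* had r of −0.226 with *col-143* and at most 0.680, with *col-20*. The libraries fall into the same 8 groups for every gene, and no test was made of them.

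In order of level, the young 25°C groups came first in 6 genes, *npr-8(ok1439)* before wild type, and these neighbours did not overlap in *col-8*, *col-98* and *col-179*. The lowest group was old *npr-8(ok1439)* at 20°C in 6 genes and young wild type at 20°C in *col-143*. For *col-176* the order was led by the young 20°C groups, at 27.1 ± 9.29 CPM in *npr-8(ok1439)* and 5.82 ± 0.652 CPM in wild-type animals (SD, n = 5 each). In *col-20* the old *npr-8(ok1439)* group at 25°C (16.5 ± 6.49 CPM), old wild type at 25°C (15.99 ± 2.54 CPM) and old *npr-8(ok1439)* at 20°C (15.1 ± 3.32 CPM) could not be separated.

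Within the young 20°C groups the summed level of the 7 genes, carried mostly by *col-19* and *col-20*, was lowest where molting genes were highest. The 7 summed to 3349, 2166, 3077, 1336 and 2346 CPM in *npr-8(ok1439)* libraries 1 to 5, where the 8 molting genes summed to 1304, 1837, 1392, 2506 and 1800 CPM. In wild-type libraries 1 to 5 the 7 summed to 1207, 421, 1334, 1846 and 2517 CPM and the molting genes to 1534, 1798, 1528, 1146 and 1171 CPM. In each genotype the library with most molting RNA (4 in *npr-8(ok1439)*, 2 in wild type) had the least of the 7. Not every gene had the order of the sum. In *npr-8(ok1439)* libraries *col-176* had the same order as the molting genes and *col-98* neither order, and both were at the highest level of their group in library 4 (116 CPM for *col-98* and 42.8 CPM for *col-176*). The part of molting in these levels was not tested.

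**Figure D5:**
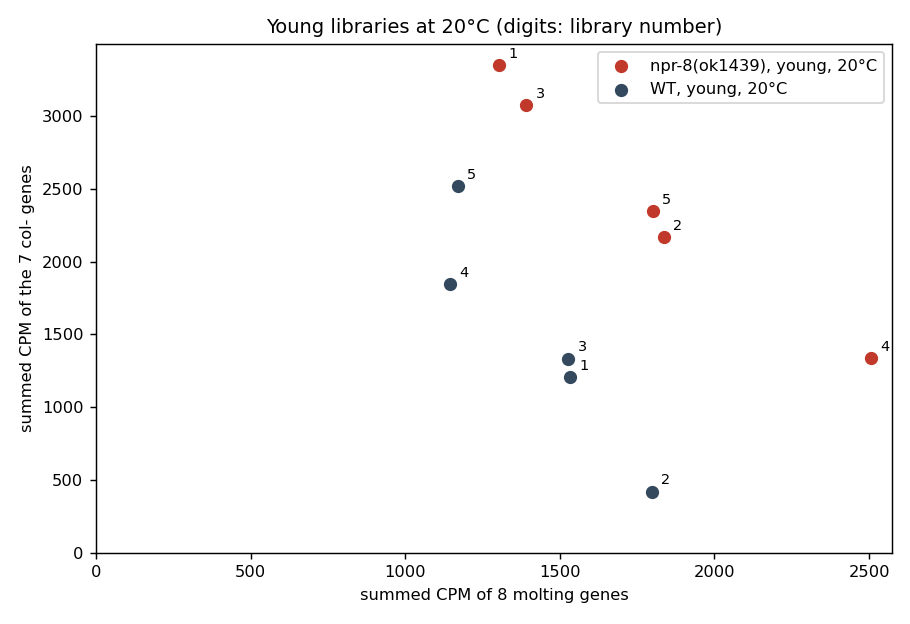
Summed CPM of the 7 genes against summed CPM of 8 molting genes in the 10 young libraries at 20°C, with *npr-8(ok1439)* in red, wild type in blue and the library number beside each point. The 7 genes are lowest in the library with most molting RNA in each genotype (1336 CPM in *npr-8(ok1439)* library 4 and 421 CPM in wild-type library 2).

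Collagen-processing genes were called lower with age in 8 of 14 in *npr-8(ok1439)* and 5 of 14 in wild-type animals at 25°C, and in 10 of 11 and 10 of 14 at 20°C, with none higher. The shares of all genes called lower in these comparisons were 23.4%, 15.4%, 39.4% and 36.7%. The genes were led by *bli-5*, a Kunitz-type protease inhibitor (−6.19 in *npr-8(ok1439)* and −6.06 in wild type at 20°C), *doxa-1*, a dual oxidase maturation factor (−2.82 in *npr-8(ok1439)* and −2.21 in wild type at 25°C), and *mlt-7*, a peroxidase (−2.15 in *npr-8(ok1439)* and −1.43 in wild type at 25°C). In wild type at 25°C 15 of 21 named cuticle collagens were called higher with age, where 9.07% of all genes were. They were led by *dpy-3* (2.06) and *dpy-14* (2.005), and only *bli-6* was lower (−1.72). The rise was between low summed levels. The 20 that could be summed had a median of 74.1 CPM in young and 166.4 CPM in old wild-type libraries at 25°C. In young wild-type libraries at 20°C their median sum was 12580 CPM. In *npr-8(ok1439)* mutants at 25°C, 15 of 21 named cuticle collagens were lower with age and 2 higher. At 20°C 18 of 20 in *npr-8(ok1439)* and 18 of 21 in wild-type animals were lower, and *dpy-14* and *dpy-17* were higher.

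Among heterochronic and epidermal regulators, *lin-29* fell with age in 3 of the 4 settings, with log2 fold changes of −3.800 (SE 0.10) in *npr-8(ok1439)* and −2.97 (SE 0.09) in wild-type animals at 20°C, and of −2.06 (SE 0.20) in *npr-8(ok1439)* mutants at 25°C. In wild type at 25°C *lin-29* was not called, and the regulator called lower was *elt-3*, an epidermal GATA factor (−1.29, SE 0.12), which also fell in *npr-8(ok1439)* mutants at 25°C (−2.17, SE 0.23). *lin-42*, a period-like gene that cycles with the molts, fell likewise at 20°C (−4.96 in *npr-8(ok1439)* and −4.53 in wild type), and the RNA-binding factors *lin-41* and *lin-28* rose (1.998 and 1.92 in *npr-8(ok1439)*, 2.86 and 1.98 in wild type). In all, 7 of 13 were called lower and 4 higher in *npr-8(ok1439)* and 8 of 15 lower and 3 higher in wild type at 20°C, against 5 and 2 of 15 in *npr-8(ok1439)* and 1 and 0 of 15 in wild type at 25°C. Of all genes, 39.4% were called lower and 27.5% higher in *npr-8(ok1439)* and 36.7% and 26.7% in wild type at 20°C, against 23.4% and 10.4% in *npr-8(ok1439)* and 15.4% and 9.07% in wild type at 25°C. Between genotypes at most 1 of them was called in any setting: *lin-41* was higher in young *npr-8(ok1439)* mutants at 20°C (1.13, SE 0.12, adjusted p = 4.51e-05) and *nhr-25* lower at 25°C (−1.36, SE 0.25, adjusted p = 0.000791). Of the collagens of the dauer cuticle and cuticlins, 3 of 5 were called higher and 1 lower with age in *npr-8(ok1439)* and 4 of 5 higher and 1 lower in wild type at 25°C, whereas 4 of 5 were lower in each genotype at 20°C.

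The 10 genes outside the list whose log2(CPM + 1) over the 40 libraries was most like the mean of the 7 were *col-80* (r = 0.978), *col-103* (0.977), *clec-204* (0.977), *Y69H2.14* (0.973), *col-119* (0.968), *T13F3.6* (0.967), *cdr-7* (0.965), *grd-13* (0.964), *upb-1* (0.964) and *Y48E1B.8* (0.963), out of 13236 genes searched. *col-80* had mean levels of 2862 CPM in young *npr-8(ok1439)* and 1512 CPM in young wild-type animals at 25°C, against 562 and 315 CPM at 20°C. In old animals it had 23.8 CPM in *npr-8(ok1439)* and 37.3 CPM in wild type at 25°C, and 10.003 and 86.8 CPM at 20°C. Its order of groups thus followed that of *col-19*.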

How the data were processed

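RNA of whole animals was sequenced from poly(A) libraries (TruSeq Stranded mRNA). Reads had been aligned to ce10 by the authors using HISAT2, and groups were quantified and compared in pairs by Cuffquant and Cuffdiff. The submitters' processing notes name bcl2fastq, Bowtie2 2.3.4, Cufflinks 2.2.1 and Cuffdiff, and the annotation is not given in the sources used here. The deposited tables hold, per library, estimated counts (fragments per gene, not scaled) and FPKM, scaled by Cuffdiff separately for each deposited table. Columns of the authors' fold changes and p-values were not used, and 12 value columns (fragments rescaled by Cuffdiff, a pair in each of the per-library tables) were not used. Tables number libraries from 0, and number 0 was taken as library 1, which no file states.

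Old *npr-8(ok1439)* mutants at 20°C have values per transcript only. Transcripts were summed to genes by accession or by matching the wild-type fragments, and 88.4% of 13851 genes with at least 10 fragments in old wild type at 20°C could be used. All 7 collagen genes were among them.

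Fragments were rounded and tested with edgeR 4.0.16 (R 4.3.3) in its quasi-likelihood F test, with genes filtered by filterByExpr (minimum count 10, minimum total 15), TMM scaling and only the groups compared. Benjamini-Hochberg adjustment covered every gene tested. A call needed an adjusted p below 0.05 together with a change of 1 or more on the log2 scale, in either direction. Interactions were terms of a fit with 4 groups. A named gene is one of the 7, a *col-* gene at or above the lowest of the 7 by temperature in young wild type, one of the 10 most alike over libraries, or one of up to 2 genes with the largest change each way in a list. The 7 genes, the lists and the tests were chosen with earlier results of these data known. How fragments of near-identical collagen copies were divided was not examined. Alternatives were RLE factors, library size alone, no filter, 1 fit over all groups, the replicate number as a block, DESeq2 1.42.0, limma 3.58.1 on log2(FPKM + 1) and log2(FPKM + 0.1), and each library left out in turn. The procedure was tested on simulated data.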

Additional observations from a re-analysis of the deposited data

Results flagged for a closer look

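In 4 of the 56 sets of 5 libraries (7 genes in 8 groups) 1 library lay far from the other 4. For normally distributed values the rule flags about 1 set in 20. The genes share their libraries, so the sets are not independent and the 4 are not set against that rate. In old wild-type animals at 20°C, library 2 held the highest level of *col-8* (203 CPM, others 99.5 to 125), *col-143* (140.1 CPM, others 90.3 to 102) and *col-179* (44.5 CPM, others 22.6 to 27.5). In young *npr-8(ok1439)* mutants at 25°C, library 1 held the lowest level of *col-19* (1576 CPM, others 3723 to 4299).

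The effect of genotype differed with age at 20°C in all 7 genes, with interaction terms on the log2 scale of −3.83 for *col-8*, −3.31 for *col-19*, −3.82 for *col-20*, −5.20 for *col-98*, −5.03 for *col-143*, −3.44 for *col-176* and −3.98 for *col-179*. At 25°C it differed with age in *col-19* (−1.20) and *col-179* (−1.76). The terms at both temperatures include young wild-type libraries used in the choice of the genes and are a description. In old animals the terms by temperature, which involve the contrast used in the choice of the genes and are a description only, were largest in *col-8* (2.48), *col-19* (2.22), *col-20* (3.16), *col-98* (2.90), *col-143* (1.96) and *col-179* (2.03).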

How the results depend on the processing

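No log2 fold change of the 7 genes that was called changed sign under any alternative. In young animals at 25°C the number called between genotypes was 1 and became 0 with RLE factors, DESeq2 and limma on log2(FPKM + 1) or log2(FPKM + 0.1), as *col-98* gave 0.99, 0.96, 0.78 and 0.79 (adjusted p = 0.862 and 0.994 in the limma fits), and ranged from 0 to 1 when a library was left out. In old animals at 25°C it was 1 and became 2 with library size alone and with both limma fits (*col-98* at 1.004, 1.03 and 1.09), and ranged from 1 to 2 when a library was left out. With 1 fit over all groups *col-8* was also called between genotypes in young animals at 20°C (adjusted p = 0.00966) and with age in wild type at 20°C (adjusted p = 0.0191). Limma on log2(FPKM + 1) and log2(FPKM + 0.1) lost *col-179* with age in wild type at 20°C (adjusted p = 0.101 and 0.092). The limma fits were not run for the other age comparisons and the interactions, for which no one table holds all groups. Replicate numbers did not pair the libraries (correlations of same-numbered libraries from −0.41 to 0.241, and 0 to 4 of 5 closest to their own number), and with the replicate block *col-179* was not called with age in wild type at 20°C (−1.40, adjusted p = 0.0909), and no other call of the 7 changed. Of the 10 genes most like the 7, 4 were also among the first 10 by Spearman correlation. Over all genes, calls between genotypes in young animals at 25°C were 2014 higher and 396 lower, against 126 and 25 with limma on log2(FPKM + 1) and 104 and 10 on log2(FPKM + 0.1). In old animals at 25°C they were 1471 higher and 503 lower, against 933 and 307 with limma on log2(FPKM + 1). With no filter 412 genes passed the threshold for a call as higher at 25°C and 928 as lower in old wild type, against 273 and 577 with the filter. Scaling by library size alone gave 1606 higher and 1744 lower calls with age in wild type at 25°C, against 1256 and 2135 with TMM, and the share of higher calls was 42.2% in place of 30.7% with age in *npr-8(ok1439)* at 25°C and 76.3% in place of 66.2% in the interaction with temperature. RLE factors moved the median of all genes with age at 20°C to −0.01 in place of −0.31 in *npr-8(ok1439)* and to −0.02 in place of −0.16 in wild type. Few fragments limit *col-176* in old animals.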
